A study of Ovis aries with 40 samples.

Results

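The genes described here are 7 genes of the red cell lineage, ALAS2, HBM, TRIM10, GATA1, KLF1, EPB42 and SLC4A1, measured by bulk RNA-seq in the developing sheep lung. They were taken by symbol from the gene column of the count tables and are 7 of the 24478 genes counted in each of 40 libraries. Red cells form from nucleated precursors that switch on haem synthesis, globin chains and a specialised membrane, and then lose their nucleus and most of their RNA. In the fetus they form mainly in the liver and later in the bone marrow, and immature cells that still carry RNA circulate with the blood. A piece of a blood-rich organ such as the lung may hold them, but the cells that carried the RNA were not identified here. GATA1 and KLF1 are the transcription factors that switch on most of the other genes of this lineage. ALAS2 makes the red cell form of the enzyme that starts haem synthesis, and HBM is an alpha-like globin gene. SLC4A1 encodes band 3, the chloride and bicarbonate exchanger of the red cell membrane, EPB42 encodes protein 4.2, which binds to it, and TRIM10 encodes a tripartite motif protein known from terminal red cell maturation.

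On the Oar_v4.0 assembly of the sheep genome, ALAS2 is on the X chromosome (chrX:47831369-47858464, plus strand, 11 merged exons), as is GATA1 (chrX:53004596-53011406, minus strand, 6 merged exons). HBM lies in the alpha globin region of chromosome 24 (chr24:149337-150168, plus strand, 3 merged exons). The remaining positions are chr5:10697979-10703256 for KLF1, chr7:35461155-35481147 for EPB42, chr11:43425389-43441365 for SLC4A1 and chr20:27764340-27774608 for TRIM10. No other annotated gene overlapped any of the 7. HBM has close relatives nearby, and the treatment of reads that match several genes is not given in the sources used here. How far this affected its counts was not tested.

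Lung tissue was taken from wild-type (WT) and CFTR-/- (CF) American Romney sheep at gestation days 65, 80, 100 and 120 and at term, labelled as day 147 and birth, for which the methods give a span of days. CFTR encodes the chloride channel that is defective in cystic fibrosis. There were 2 libraries each of proximal and of distal lung per genotype and time point, 20 conditions in all, and no agent was given. The WT animals came from ordinary breeding, and those of the term group were born naturally and killed at an interval after birth that is not given for single animals in the sources used here. All CF animals were clones made by nuclear transfer from a single male fetal fibroblast line with a targeted exon 2 of CFTR. A difference between CF and WT therefore cannot be told apart from cloning or from the donor line. The study's methods do not state the sex of the WT animals, so sex may differ as well. At term the interval after birth may also differ between the genotypes. Both WT libraries of day 100 carry the same animal label in each region, and an animal label of WT day 65 recurs at CF day 100, so whether these came from separate animals is unknown and the p-values measure the spread between libraries. Total counts per library were 24670355 to 43700012 in WT before term, 85773994 to 103139483 in CF before term, and 115937437 to 126749480 at term. Genotype before term therefore also differed in depth, as did stage in both genotypes, and more so in WT. Although labelled as epithelial tissue, every library held endothelial PECAM1 (187 to 708 CPM, that is counts scaled to library size) and mesenchymal COL1A1 (498 to 8187 CPM) beside epithelial EPCAM (90.2 to 286 CPM), as whole lung tissue does.

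All 7 genes were detected in the lung before term, at low levels. Over the 280 values, counts ranged from 0 to 3756, and only 2 were 0, both for KLF1 in WT lung at day 80. In those 2 libraries 3 counts would have stood for 0.113 and 0.0671 CPM, where CPM is scaled by the trimmed mean of M-values (TMM). On a scale of CPM per kilobase of merged exon, the mean over the 16 WT libraries before term was 15.5 for ALAS2, 5.53 for HBM, 1.33 for TRIM10, 0.911 for SLC4A1, 0.551 for EPB42, 0.426 for GATA1 and 0.116 for KLF1. CF lung before term had the same leading genes, with ALAS2 at 8.69 and HBM at 3.09 CPM per kilobase. Single libraries of neighbouring genes in this order overlapped, and the order was not tested.

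In WT lung the mean of every member was highest at day 120, and that of 6 of 7 was lowest at term. Their summed level, which at day 120 was mostly ALAS2, was between 14.6 and 45.5 CPM in the 12 WT libraries of days 65 to 100, between 78.5 and 139 CPM in the 4 libraries of day 120, and between 1.61 and 3.98 CPM in the 4 libraries of term. In CF lung the corresponding sums were 12.8 to 48.2, 29.2 to 65.6 and 5.35 to 11.2 CPM. The CF range at day 120 lay below the WT range, and the CF range at term lay above it. In WT, the mean of day 120 was the highest of the 5 time points in all 14 courses (7 genes in 2 regions), and in CF in 6 of 14. Among all genes kept over the 40 libraries, 14.8% of the WT courses and 17.9% of the CF courses peaked at day 120. The mean of term was the lowest in 12 of 14 WT courses, the exceptions being KLF1 in both regions, and in 10 of 14 CF courses, against 30.2% and 35.3% of the courses of all genes. A lower level in such tissue may stand for fewer cells of the lineage or for less RNA per cell, and bulk counts cannot tell these apart.

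**Figure D1:**
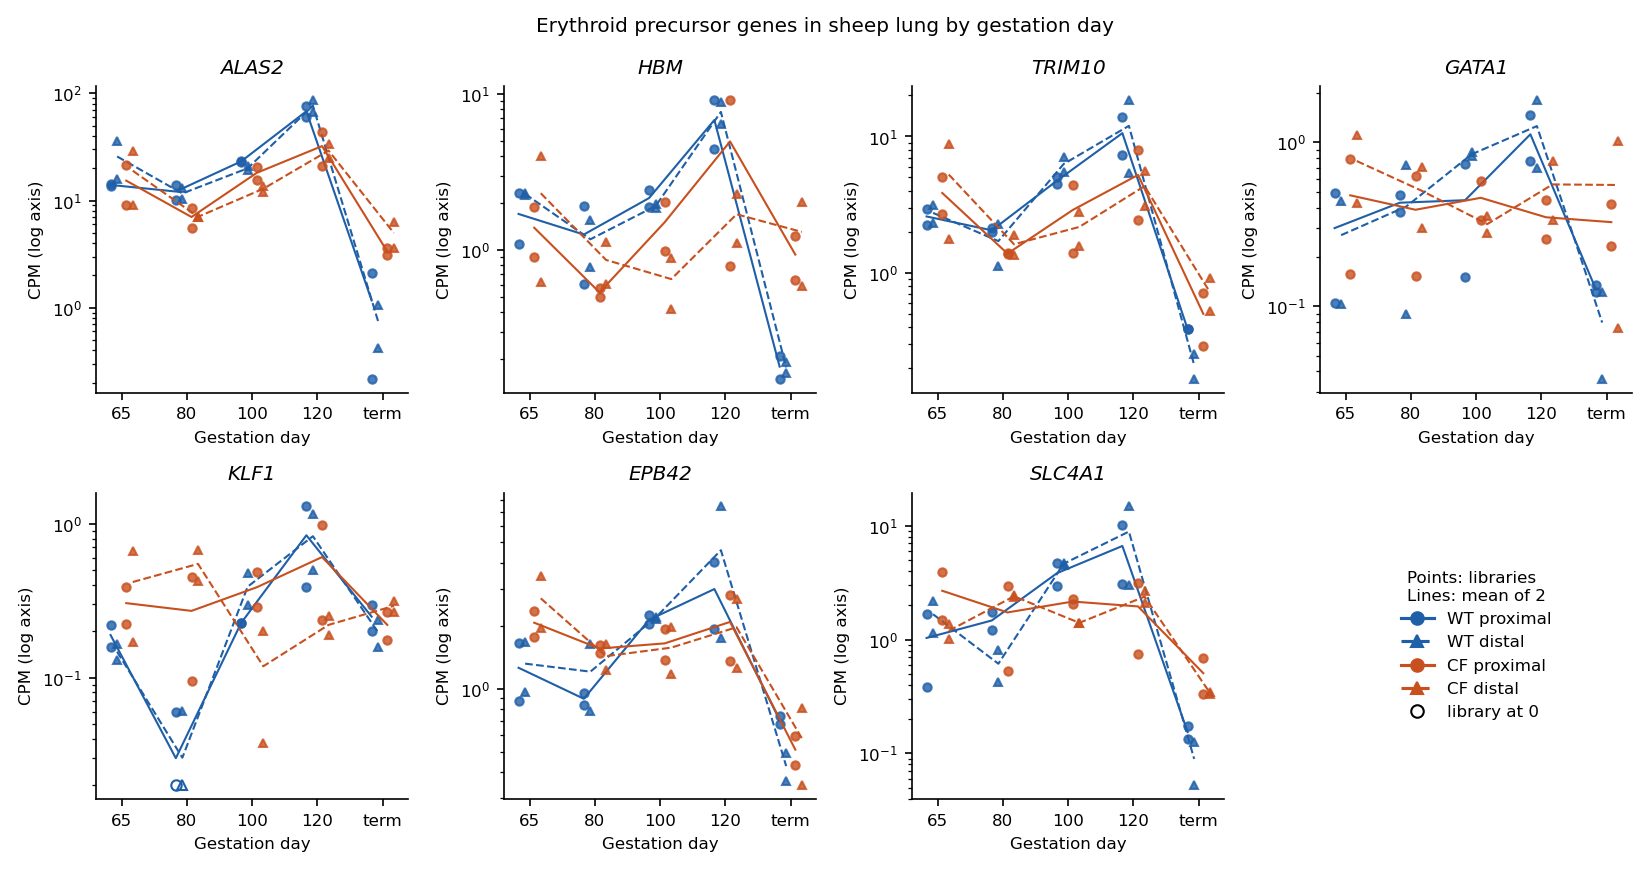
Level of each of the 7 genes in CPM (vertical log axis) at gestation days 65, 80, 100, 120 and term, for WT (blue) and CF (orange), proximal (circles, solid line) and distal (triangles, dashed line) lung, with 1 point per library, lines through the means of 2 libraries and open symbols near the lower edge for the 2 libraries at 0. ALAS2 was at 60.5 CPM or more in all 4 WT libraries of day 120 and at 2.12 CPM or less at term, and in CF at 20.8 CPM or more and at 6.33 CPM or less.

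The step from day 120 to term was tested in each time course with edgeR's quasi-likelihood test. A gene was called when its Benjamini-Hochberg adjusted p over all genes tested was 0.001 or less and its log2 fold change was 0.58 or more in size. These are the limits the study used, and results at an adjusted p of 0.05 or less are given beside them. For this step the paper reports more genes at its limits in WT proximal, CF proximal and CF distal lung than were called here. In WT proximal lung 1 of the 7 members was called lower, against 2.14% of the 18186 genes tested called in either direction and 0.935% called lower. In WT distal lung 2 of 7 were called lower, against 1.15% of 18277 genes in either direction and 0.525% lower. At the limit of 0.05, 6 of 7 members were lower in each WT region, KLF1 being the exception, against 8.78% and 10.5% of all genes lower. The median log2 fold change of the 7 was -4.78 in WT proximal and -5.43 in WT distal lung, while the median of all genes tested was 0.06 and 0.04. With DESeq2 the calls at the stricter limit were 4 in proximal and 5 in distal WT lung, where it called 13.4% and 13.9% of all genes. The count at that limit fell in some fits with a single library left out, and in distal lung with both day 100 libraries summed. Such fits leave 1 library in a group, and the share of all genes they called is not given here.

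ALAS2, the first enzyme of haem synthesis in red cells, had the largest estimates of the 7 in WT. There it stood at 75.6 and 60.5 CPM in the proximal and at 86.8 and 66.7 CPM in the distal libraries of day 120. At term it was 2.12 and 0.218 CPM in proximal and 1.07 and 0.421 CPM in distal lung. The term libraries lay far below every earlier WT library, of which the lowest held 10.2 CPM, although both regions of the first term animal had more ALAS2 than those of the second. The log2 fold change was -5.88 ± 0.782 (SE) in proximal lung, with an edgeR adjusted p of 0.00121, and -6.71 ± 0.536 in distal lung, with an edgeR adjusted p of 0.00026. The mean over the 4 libraries of day 120 was 75.8 times that of term, and 127 times without the first WT proximal library of term, which moved the proximal log2 fold change to -8.26. In CF lung ALAS2 stood at 20.8 and 43.6 CPM in proximal and at 24.8 and 33.7 CPM in distal lung at day 120, and at 3.09 and 3.6 CPM and 3.63 and 6.33 CPM at term. These groups did not overlap either, but the ratio of the means was 7.38. The CF log2 fold change was -3.30 ± 0.563 in proximal lung (edgeR adjusted p = 0.0599) and -2.56 ± 0.513 in distal lung (edgeR adjusted p = 0.0123).

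The globin gene HBM held 9.16 and 4.48 CPM in WT proximal and 8.92 and 6.45 CPM in WT distal libraries of day 120. At term it held 0.209 and 0.151 CPM in proximal and 0.163 and 0.193 CPM in distal lung, from 18 to 24 reads per library. All WT term libraries were below all 16 earlier ones, and the 4 were close to each other. The fitted log2 fold change was -5.23 ± 0.712 in WT proximal (edgeR adjusted p = 0.00135) and -5.43 ± 0.478 in WT distal lung (edgeR adjusted p = 0.000387). Without the first WT proximal library of day 120 the proximal estimate was -4.61. CF libraries of day 120 held 0.787 and 9.15 CPM in proximal and 1.11 and 2.28 CPM in distal lung, and those of term 0.64 and 1.24 CPM and 0.591 and 2.03 CPM. These CF groups overlapped, and neither region passed either limit (log2 fold change -2.44 ± 1.04 and -0.38 ± 0.894, edgeR adjusted p = 0.321 and 0.781). The 2 CF proximal libraries of day 120 also differed from each other across the transcriptome by gene length, with a median log2 difference (second minus first) of 1.14 for genes under 1 kb and of -0.56 for genes over 4 kb. HBM, at 565 bases the shortest member, had 80 reads in the first and 788 in the second, and SLC4A1, at 3953 bases, had 322 and 64. Smaller differences of this kind were present at day 120 in CF distal lung (0.62 and -0.29) and at term in WT distal lung (0.32 and -0.26). The part of this trend in the spread of the members was not tested.

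The 2 members of the red cell membrane, SLC4A1 and EPB42, were lower at term in WT lung as well. SLC4A1 was at 10.2 and 3.07 CPM in WT proximal and at 14.8 and 3 CPM in WT distal libraries of day 120, and at 0.174 and 0.134 CPM and 0.126 and 0.0526 CPM at term. The first animal of day 120 was well above the second in both regions, and all term libraries lay below both. By edgeR the log2 fold change was -5.42 ± 0.848 in proximal (edgeR adjusted p = 0.00247) and -6.61 ± 0.912 in distal lung (edgeR adjusted p = 0.00218), and the ratio of means was 63.8. Without the first WT animal of day 120 the estimates were -4.28 and -5.05. In CF, SLC4A1 went from 3.17 and 0.743 CPM to 0.33 and 0.684 CPM in proximal lung, where the change did not pass (log2 fold change -1.98 ± 1, edgeR adjusted p = 0.402). In CF distal lung it went from 2.65 and 2.12 CPM to 0.348 and 0.334 CPM, 4 values with little spread within the 2 groups, and the log2 fold change of -2.81 ± 0.421 passed the limit of 0.05 (edgeR adjusted p = 0.00498).

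EPB42 showed a smaller step. In WT it was at 4.05 and 1.93 CPM in proximal and 7.43 and 1.75 CPM in distal lung at day 120, and at 0.68 and 0.737 CPM and 0.361 and 0.491 CPM at term. The highest term library, at 0.737 CPM, was just under the lowest earlier WT library, at 0.783 CPM. The log2 fold change was -2.08 ± 0.506 in WT proximal (edgeR adjusted p = 0.017) and -3.43 ± 0.727 in WT distal lung (edgeR adjusted p = 0.0107). Without the first WT library of day 120 they were -1.43 and -2.05 and no longer passed (edgeR adjusted p = 0.124 and 0.0797). In CF it was at 1.36 and 2.81 CPM and at 1.25 and 2.68 CPM at day 120, and at 0.592 and 0.43 CPM and 0.812 and 0.346 CPM at term. EPB42 and TRIM10 were the members whose 4 CF term libraries lay below all 16 earlier CF libraries, yet the EPB42 step did not pass in CF (log2 fold change -2.06 ± 0.556 and -1.75 ± 0.599, edgeR adjusted p = 0.156 and 0.0617).

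TRIM10 was the member called in WT proximal lung. Its WT libraries held 13.9 and 7.29 CPM in proximal and 18.5 and 5.4 CPM in distal lung at day 120. At term they held 0.383 and 0.385 CPM in proximal and 0.253 and 0.167 CPM in distal lung. Its log2 fold change was -4.78 ± 0.419 in proximal (edgeR adjusted p = 0.00021) and -5.83 ± 0.704 in distal lung (edgeR adjusted p = 0.00128), and -4.69 in distal lung without the first library of day 120. In CF, TRIM10 was at 2.42 and 8.01 CPM and at 3.07 and 5.57 CPM at day 120, and at 0.291 and 0.706 CPM and 0.527 and 0.914 CPM at term. The groups were separate in both regions, with a log2 fold change of -3.42 ± 0.854 in proximal (edgeR adjusted p = 0.135) and of -2.58 ± 0.746 in distal lung (edgeR adjusted p = 0.0373), the latter past the limit of 0.05.

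The transcription factors had the lowest means of the 7 per kilobase before term in both genotypes. GATA1 was at 1.47 and 0.773 CPM in WT proximal and at 1.82 and 0.699 CPM in WT distal libraries of day 120, and at 0.122 and 0.134 CPM and 0.0361 and 0.123 CPM at term, the last values standing for 4 to 16 reads. Term and day 120 did not overlap in WT, but 3 of the 16 earlier WT libraries were at or below the highest term library. In the edgeR fit the log2 fold change was -3.11 ± 0.943 (edgeR adjusted p = 0.0404) and -3.94 ± 1.16 (edgeR adjusted p = 0.0366). With single libraries left out it ran from -3.51 to -2.56 in WT proximal and from -5.06 to -3.11 in WT distal lung. In CF, GATA1 was at 0.443 and 0.256 CPM and at 0.336 and 0.772 CPM at day 120, and at 0.233 and 0.419 CPM and 0.0738 and 1.03 CPM at term. The CF groups overlapped, with 15 of the 16 earlier CF libraries at or below the highest term library and log2 fold changes of -0.14 ± 1 and -0.01 ± 1.04. GATA1 is also used by mast cells, and 9 of 17 listed mast cell and eosinophil genes were in the table. At 0.05, 2 of 7 tested were lower in WT proximal (8.78% of all genes) and 1 of 5 in WT distal lung at term (10.5%), 0 of 8 passed in CF proximal and 1 of 8 was higher in CF distal lung (11.5% of all genes). Their summed level, nearly all of it KIT, a receptor also used by other cells, and TPSB2, a mast cell tryptase, went from 68.2 to 84.4 CPM at WT day 120 to 14.9 to 18 CPM at WT term, while in CF it was 61.2 to 106 CPM at day 120 and 74.8 to 116 CPM at term. TPSB2, singled out after its values were seen, was at 21.3 to 26.1 CPM at WT day 120 and 1.01 to 7.71 CPM at WT term, and at 5.65 to 24.1 CPM and 32.2 to 46.9 CPM in CF. The part of these genes in the level of GATA1 was not tested.

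KLF1 did not pass either limit in any step to term. In WT it was at 1.29 and 0.387 CPM and at 1.16 and 0.5 CPM at day 120, and at 0.296 and 0.201 CPM and 0.235 and 0.158 CPM at term. These groups did not overlap, but 10 of the 16 earlier WT libraries were at or below the highest term library. At days 65 to 100 KLF1 was at 0 to 0.48 CPM in WT. In CF it was at 0.236 and 0.976 CPM and at 0.189 and 0.25 CPM at day 120, and at 0.175 and 0.265 CPM and 0.316 and 0.268 CPM at term. The log2 fold changes were -1.75 ± 0.862 and -2.07 ± 0.895 in WT and -1.49 ± 1 and 0.40 ± 0.908 in CF proximal and distal lung.

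**Figure D2:**
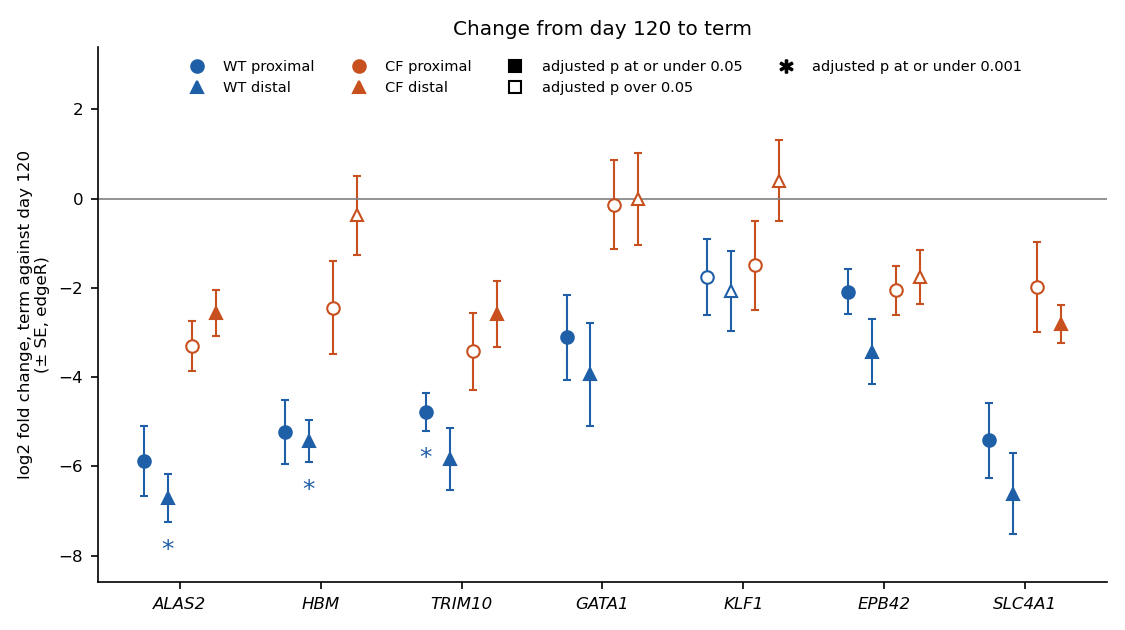
Log2 fold change of term against day 120 (vertical axis, with bars of 1 SE from the edgeR fit) for each of the 7 genes in WT (blue) and CF (orange) proximal (circles) and distal (triangles) lung. Filled symbols passed an adjusted p of 0.05 and stars mark the 3 calls at 0.001, which are TRIM10 in WT proximal and ALAS2 and HBM in WT distal lung.

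Over both regions, all 7 members had their 4 WT term libraries below their 4 WT libraries of day 120, a pattern that 17% of all genes kept over the 40 libraries showed. In CF 4 of 7 did, against 10.4% of all genes. Below all 16 earlier libraries were 5 of 7 members in WT, against 10.5% of all genes, and 2 of 7 in CF, against 7.42%. In the CF time courses 0 of 7 members were called in either region, where edgeR called 0 of 19690 genes in proximal (0%) and 0.338% of 19508 genes in distal lung. The CF medians of the 7 were -2.06 and -1.75 on the log2 scale in proximal and distal lung, against -0.12 and -0.06 for all genes tested. At an adjusted p of 0.05, 0 of 7 were lower in CF proximal (0.279% of all genes) and 3 of 7, ALAS2, TRIM10 and SLC4A1, in CF distal lung (11.4% of all genes). At an unadjusted p under 0.05, 4 of 7 CF members were lower in each region (8.63% of all genes in proximal and 20.9% in distal lung). DESeq2 called 2 in each, ALAS2 and TRIM10 in proximal (2.17% of all genes) and ALAS2 and SLC4A1 in distal lung (12.4%). With single libraries of a time course left out, the limit of 0.05 was still passed in all 10 fits by ALAS2, HBM, TRIM10 and SLC4A1 in both WT regions and by ALAS2 and SLC4A1 in CF distal lung. GATA1 passed in 4 of 10 fits in each WT region, EPB42 in 7 of 10 in WT proximal and 9 of 10 in WT distal lung, and TRIM10 in 2 of 10 in CF distal lung.

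Levels before term were compared next. The joint test over days 65, 80, 100 and 120 called 0 of 7 members in each of the 4 time courses at 0.001, against 1.76% of all genes in WT proximal, 0.782% in WT distal, 0% in CF proximal and 0.205% in CF distal lung. At an unadjusted p under 0.05 the counts were 6, 5, 1 and 1, against 28%, 26.8%, 9.75% and 22.6% of all genes, and DESeq2 called 1, 4, 0 and 0 at 0.001, against 13%, 12.1%, 3.24% and 8.4%. At an adjusted p of 0.05, TRIM10 passed in WT proximal lung (edgeR adjusted p = 0.00623), and ALAS2, HBM, TRIM10 and SLC4A1 passed in WT distal lung (edgeR adjusted p from 0.0087 to 0.0402), against 14.5% and 12.8% of all genes. In these genes day 120 was the high point. ALAS2 was at 10.2 to 35.6 CPM in the 12 WT libraries of days 65 to 100, below all 4 of day 120, and HBM was at 0.604 to 2.44 CPM, also below. In TRIM10 (1.12 to 7.07 CPM) and SLC4A1 (0.385 to 4.71 CPM) the earlier days reached into the range of day 120.

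The single step from day 100 to day 120 called 0 of 7 members in every time course, against 0.077% of all genes in WT proximal, 0.0274% in WT distal, 0% in CF proximal and 0.0103% in CF distal lung. Unadjusted p was under 0.05 for 3, 2, 0 and 1 members, against 16.1%, 17.2%, 7.69% and 11.8% of all genes. DESeq2 called 2 in WT distal lung, ALAS2 and HBM, and 0 elsewhere, against 2.54% of all genes there and 2.48% in WT proximal, 0.696% in CF proximal and 1.86% in CF distal lung. In WT distal lung HBM rose by 2.00 ± 0.409 on the log2 scale (edgeR adjusted p = 0.042), from 1.85 and 1.98 CPM to 8.92 and 6.45 CPM, as did 1.32% of all genes at that limit, and ALAS2 gave 1.94 ± 0.427 (edgeR adjusted p = 0.0525). HBM passed in 6 of the 10 fits with a library left out and in 6 of 9 other settings. It did not pass without either library of day 100 or of day 120 (edgeR adjusted p from 0.108 to 0.315), nor with the 2 day 100 libraries, which carry 1 animal label, summed (edgeR adjusted p = 0.335). All 7 log2 fold changes of this step were above 0 in both WT regions and in CF distal lung, and 5 of 7 in CF proximal lung.

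The next comparison asked whether CF and WT lung differed. At term all 7 members of distal lung had a higher estimate in CF (median 1.94 on the log2 scale), and 0 of 7 were called at 0.001, against 1.25% of 20084 genes. At an unadjusted p under 0.05 there were 5 (30.6% of all genes), and DESeq2 called 1, ALAS2 (7.69% of all genes). ALAS2 was higher in CF by 2.77 ± 0.551 on the log2 scale (edgeR adjusted p = 0.00469), since the 2 CF libraries held 3.63 and 6.33 CPM and the 2 WT libraries 1.07 and 0.421 CPM. HBM was higher by 2.89 ± 0.815 (edgeR adjusted p = 0.028). With a library left out HBM ran from 1.72 to 3.48 and ALAS2 from 2.22 to 3.55. Under 9 other settings HBM passed 0.05 in 7 and ALAS2 in 9. These were the 2 members past the limit of 0.05, which 7.16% of all genes passed in the same direction. In proximal lung 0 of 7 passed either limit (0.339% of 20344 genes called, 6.08% at 0.05), with 2 at an unadjusted p under 0.05 (19.9% of all genes), 0 by DESeq2 (4.33%) and a median log2 fold change of 1.34. There the libraries of ALAS2 at term were 3.09 and 3.6 CPM in CF and 2.12 and 0.218 CPM in WT, and the estimates of KLF1 and EPB42 were lower in CF.

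Before term the direction was the other way for most members. The mean over days 65 to 120 in CF minus that in WT had a median log2 fold change of -0.54 over the 7 in distal and -0.28 in proximal lung, with 6 and 5 estimates below 0. The test called 0 of 7 in either region, against 6.86% of all genes in distal and 2.5% in proximal lung. DESeq2 also called 0, against 12.7% of all genes in distal and 8.86% in proximal lung, and an unadjusted p under 0.05 was reached by 2 members in distal and 0 in proximal lung, against 42% and 33.7%. The 2 were ALAS2 (log2 fold change -0.80 ± 0.251, edgeR adjusted p = 0.0244) and HBM (-1.04 ± 0.376, edgeR adjusted p = 0.0471), both lower in CF distal lung, as were 6.48% of all genes at that limit. With single libraries left out HBM passed in 6 of 20 fits (edgeR adjusted p from 0.00366 to 0.121) and ALAS2 in 17 of 20 (0.00238 to 0.0649), and under 9 other settings they passed in 4 and 8.

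The change from day 120 to term itself was then compared between the genotypes. In distal lung every estimate of the CF change minus the WT change was above 0, with differences in log2 fold change from 1.68 to 5.06 and a median of 3.83, against -0.09 for all genes. At 0.001, 0 of 7 passed (0.189% of 20084 genes called), 5 had an unadjusted p under 0.05 (25.9% of all genes), and DESeq2 called 3 (4.51%). At 0.05 the same 3 passed, ALAS2 (4.16 ± 0.746, edgeR adjusted p = 0.00488), HBM (5.06 ± 1.12, edgeR adjusted p = 0.0141) and SLC4A1 (3.83 ± 0.909, edgeR adjusted p = 0.0196), against 4.21% of all genes in that direction. With any 1 of the 20 distal libraries left out, the difference was 3.62 to 4.95 for ALAS2, 3.89 to 5.66 for HBM and 2.25 to 4.56 for SLC4A1. Under 9 other settings ALAS2 and HBM passed 0.05 in all 9 and SLC4A1 in 6. In proximal lung the estimates ran from 0.05 to 3.47, 0 of 7 passed (0.0442% called, 0.585% higher at 0.05), 3 had an unadjusted p under 0.05 (15.7% of all genes), DESeq2 called 0 (1.85%), and the smallest adjusted p was 0.211. The difference between regions in this respect was not tested. The WT libraries of day 120 were the shallowest of the 4 groups in this comparison, and with all counts thinned to equal depth the distal difference was 4.30 ± 0.825 for ALAS2 (edgeR adjusted p = 0.00694), 4.51 ± 1.12 for HBM (edgeR adjusted p = 0.0217) and 3.80 ± 1.23 for SLC4A1, which no longer passed 0.05 (edgeR adjusted p = 0.0613). With a trend on gene length removed from each library, which was added after seeing the data, the distal difference of HBM was 4.58 ± 1.05 (edgeR adjusted p = 0.0123).

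No difference between proximal and distal lung was detected in the members. With the animal as a block, log2 fold changes of proximal against distal lung lay between -0.13 and 0.10 in WT and between -0.33 and 0.21 in CF, with SE from 0.159 to 0.454 in WT and from 0.139 to 0.496 in CF. None of the 7 passed either limit in either genotype, 0 had an unadjusted p under 0.05 (8.1% of all genes in WT and 2.98% in CF), and DESeq2 called 0 (0.0321% and 0.0298% of all genes, and in WT it gave an adjusted p for 1 of the 7, ALAS2). By edgeR 0% of all genes were called in either genotype, with 0% in WT and 0.00497% in CF at 0.05.

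Levels in the proximal and distal lung of the same animal were then correlated over the 16 animals before term, as numbered in the titles, on the log2 CPM scale. Pearson's r was 0.891 for ALAS2, 0.887 for TRIM10, 0.869 for EPB42 and 0.711 for HBM, and Spearman's rho was 0.812, 0.85, 0.921 and 0.674 (permutation adjusted p over the 7 members of 0.00345 or less for r and of 0.00961 or less for rho, where 100000 permutations were drawn). KLF1 (r = 0.569, rho = 0.497), SLC4A1 (r = 0.504, rho = 0.529) and GATA1 (r = 0.499, rho = 0.426) had permutation adjusted p of 0.0314, 0.0494 and 0.0494 for r and of 0.0616, 0.0524 and 0.0992 for rho. Without the 2 animals farthest from the median proximal level, r was 0.769 for ALAS2, 0.825 for TRIM10, 0.923 for EPB42 and 0.648 for HBM, and it was 0.39, 0.368 and 0.128 for KLF1, SLC4A1 and GATA1, where the relation rests on those animals. These animals span 4 days and 2 genotypes, so a course that both regions share enters every one of these values. With the mean of each of the 8 conditions removed, r was 0.58 for ALAS2, 0.691 for TRIM10, 0.817 for EPB42, 0.491 for HBM, 0.441 for GATA1, 0.299 for SLC4A1 and 0.0822 for KLF1. When the 2 animals of a condition were swapped in all 256 ways, 0 of 7 members passed (exact two-sided permutation p from 0.0625 to 0.82, adjusted p from 0.301, smallest p possible 0.00781), so that a relation between the regions of an animal beyond the shared course was not detected. Within the 8 WT animals r ran from 0.542 to 0.920 and within the 8 CF animals from -0.206 to 0.905 over the 7 members, with days mixed in the same way. With the 2 WT animals of day 100, which share a label, averaged, SLC4A1 did not pass (permutation adjusted p = 0.0726).

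**Figure D3:**
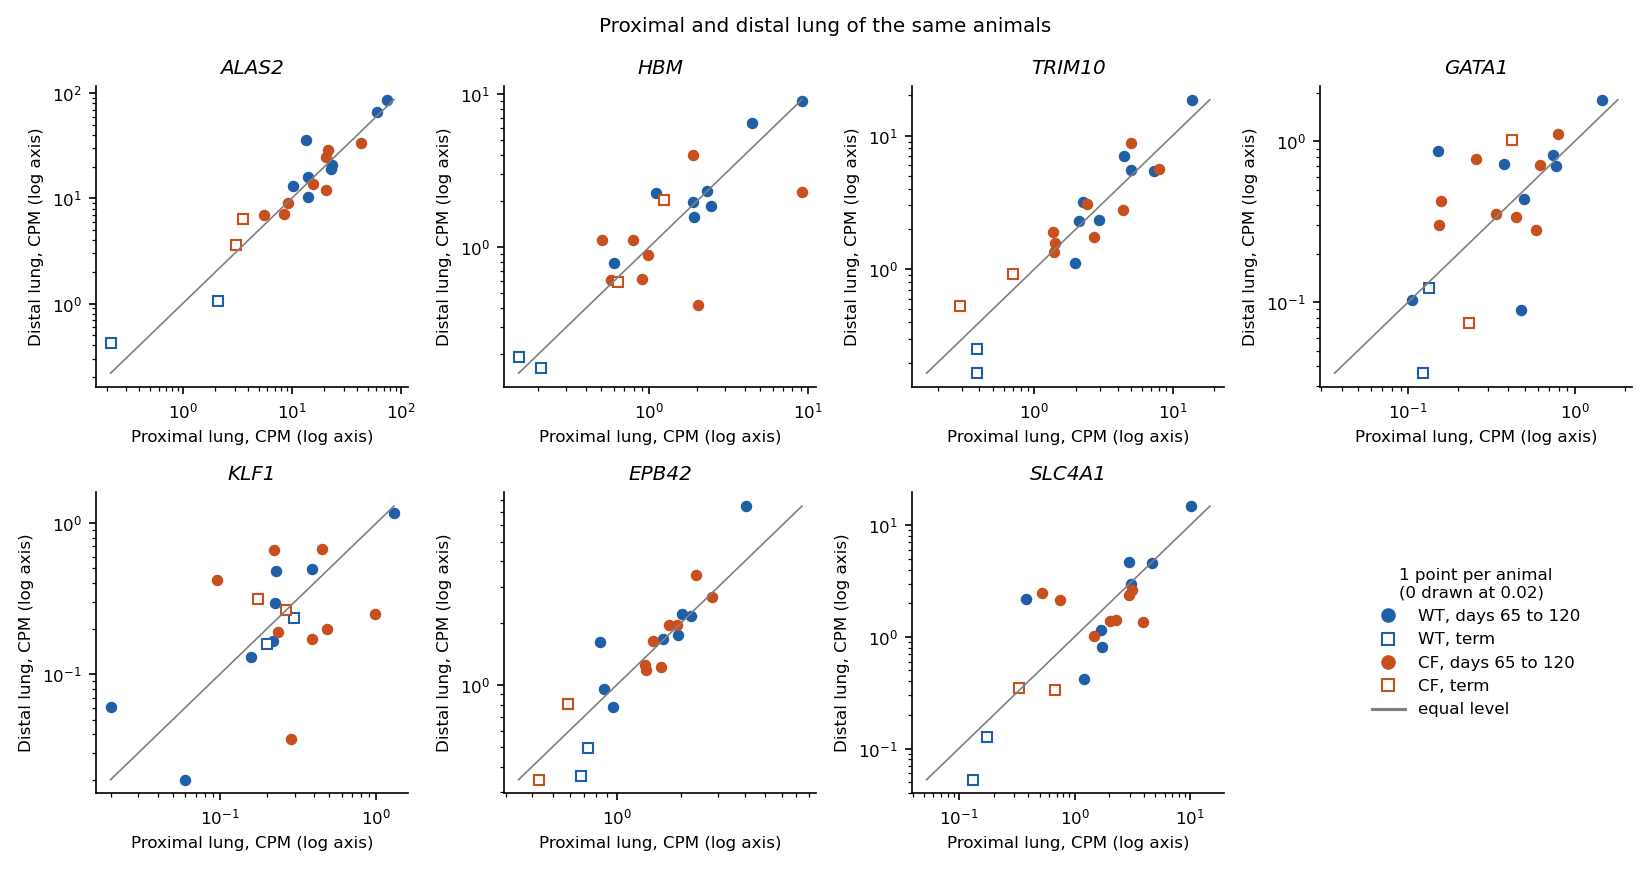
Level of each gene in distal lung (vertical log axis, CPM) against proximal lung (horizontal log axis, CPM), with 1 point per animal, WT in blue and CF in orange, days 65 to 120 filled, term as open squares, a grey line of equal level, and values of 0 placed at the edge. ALAS2, TRIM10 and EPB42 lie along the line over days and genotypes (r = 0.891, 0.887 and 0.869 before term, and 0.58, 0.691 and 0.817 with condition means removed), and KLF1, SLC4A1 and GATA1 scatter more widely.

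Among themselves the members varied together to a different degree. Over the 40 libraries, log2 CPM of the 21 pairs correlated with r from 0.267 to 0.914 and a median of 0.646, where all points share the time course. TRIM10 was closest to the mean of the other members (r = 0.928), followed by ALAS2 (0.857), EPB42 (0.829), SLC4A1 (0.821), HBM (0.810), GATA1 (0.699) and KLF1 (0.434). Of 20772 other genes kept over the 40 libraries, the 10 whose log2 CPM was most like the mean of the standardised members were taken, and 9 of them are given here. They were RHAG (r = 0.908), LOC101108797 (0.898), AHSP (0.882), HEMGN (0.846), LOC101106199 (0.822), PDE1A (0.764), ISLR (0.754), FRA10AC1 (0.751) and NALCN (0.741). RHAG is the ammonia channel of the Rh complex of the red cell membrane, AHSP is the chaperone of free alpha globin, and HEMGN is a nuclear protein of blood cell precursors. These 3 were also on lists drawn up for the red cell lineage.

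LOC101108797 and LOC101106199 carry no gene name in the annotation and had by far the highest CPM of the 9. LOC101108797 lies between HBM and HBQ1 on chromosome 24 (chr24:154453-155251, plus strand, 3 merged exons, 592 bases). Its WT libraries held 3307 and 1835 CPM in proximal and 4859 and 3214 CPM in distal lung at day 120, and 135 and 22.8 CPM and 162 and 47.9 CPM at term. As with ALAS2, the first term animal was above the second in both regions and all 4 libraries were far below day 120. Likeness to the members chose these genes, so no test is given for them. In CF it was at 1043 and 3860 CPM and at 1055 and 1764 CPM at day 120, and at 332 and 313 CPM and 357 and 479 CPM at term.

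LOC101106199 (chr15:47505339-47506940, plus strand, 3 merged exons, 634 bases) had a mean of 4294 CPM at WT day 120 and 33.1 CPM at WT term, and of 1948 and 87.5 CPM in CF. The WT term libraries split by animal, with 74.5 and 55.1 CPM in the regions of the first and 1.05 and 1.69 CPM in those of the second. Of 16 listed globin and chaperone symbols, which include those of the main alpha and beta globin genes, only 3 were in the table. These were HBZ, HBQ1 and AHSP, and the globin genes among them were low. HBZ did not exceed 0.113 CPM in any WT library, and HBQ1 did not exceed 0.578 CPM, and in CF they reached 0.557 and 1.20 CPM.

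**Figure D4:**
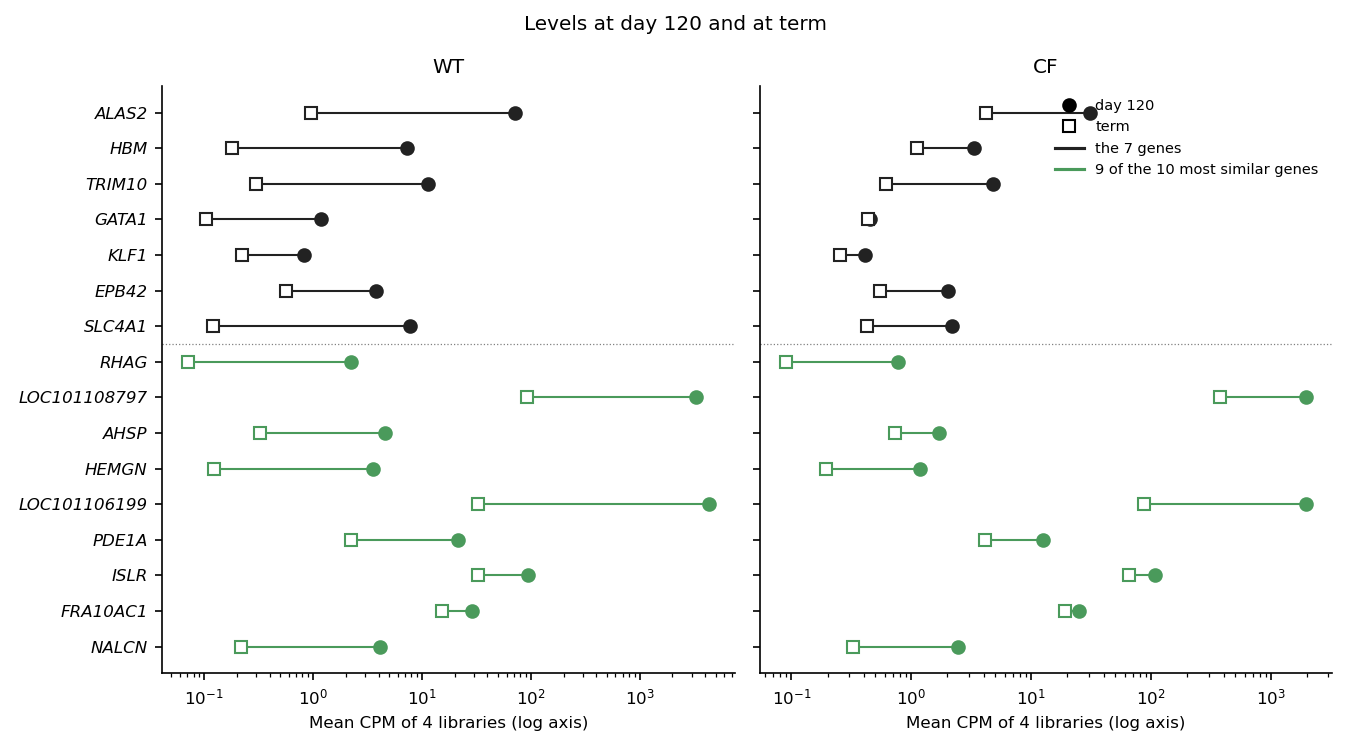
Mean level over 4 libraries (horizontal log axis, CPM) at day 120 (filled circles) and at term (open squares) for the 7 genes (black) and 9 of the 10 genes with the most similar course (green), in WT on the left and CF on the right. ALAS2 spans 72.4 to 0.955 CPM in WT and 30.7 to 4.16 CPM in CF, and LOC101108797 and LOC101106199 lie above all others at day 120.

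Lists of other genes of the red cell lineage, apart from that of globins, had medians of 0.32 or less in size in WT at term against day 120. They hold genes that other cells also use, such as ALAS1 and KIT. Each summed to 359 CPM or more at WT day 120, against 78.5 to 139 CPM for the members. RHAG and HEMGN, listed genes chosen above by likeness to the members, went from means of 2.22 to 0.0717 and of 3.55 to 0.123 CPM in WT. Of 14 listed transcription factors of the lineage, 13 were tested in WT proximal lung at term against day 120, 0 were called at 0.001, 1 was higher and 2 were lower at 0.05, and the median log2 fold change was 0.32. Of 19 genes of haem synthesis and its iron supply 1 was called, ALAS1, the form of the first haem enzyme that all cells use, and at 0.05 there were 5 higher and 0 lower (median 0.29), where 11.3% of all genes were higher and 8.78% lower. The 22 genes of the red cell membrane, skeleton and blood groups gave 1 higher call at 0.001 and 4 higher and 5 lower of 21 tested at 0.05 (median 0.06), and the 26 genes of red cell enzymes, receptors and late maturation gave 1 lower call at 0.001 and 2 higher and 3 lower at 0.05 (median 0.02). Distal WT lung gave 1 and 1, 6 and 0, 2 and 5, and 2 and 4 in the same order, where 11.8% and 10.5% of all genes were higher and lower. Of the 3 globin and chaperone genes present in the table beside HBM, 2 were tested and 1, AHSP, was lower at 0.05 in each WT region.

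ALAS1 went opposite to ALAS2. It was at 66.6 and 63.5 CPM in WT proximal and at 56.3 and 63.1 CPM in WT distal libraries of day 120, and at 590 and 450 CPM and 533 and 499 CPM at term. The log2 fold change was 2.99 ± 0.156 (edgeR adjusted p = 3.66e-05) and 3.09 ± 0.144 (edgeR adjusted p = 2.23e-05). In CF it reached 138 and 133 CPM in proximal and 170 and 117 CPM in distal lung at term, from 64.7 and 98.3 CPM and 63.9 and 79.2 CPM, and passed the limit of 0.05 in distal lung (log2 fold change 1.00 ± 0.213, edgeR adjusted p = 0.0149).

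Markers of other cells also moved from day 120 to term. Of 13 macrophage genes tested, 6 were called higher in WT proximal (1.2% of all genes), 2 in WT distal (0.624%), 0 in CF proximal (0%) and 2 in CF distal lung (0.082%). Their summed level was 282 to 323 CPM at WT day 120 and 1300 to 2457 CPM at WT term, and 220 to 278 CPM and 555 to 758 CPM in CF. MARCO, a scavenger receptor, and CSF1R, the receptor for the macrophage growth factor, were called in both WT regions, and C1QA and C1QB, chains of complement C1q, in WT proximal and CF distal lung. MARCO was under 0.1 CPM in all libraries of day 120 and between 199 and 494 CPM in WT but between 6.73 and 13.5 CPM in CF at term. Blood leukocyte genes (15) summed to 26.5 to 44.7 CPM at WT day 120 and 142 to 530 CPM at WT term, with 2 and 0 called higher in proximal and distal lung. The 20 genes of dividing cells had a median log2 fold change of 0.05 and -0.06 in WT and of -2.09 and -2.22 in CF, where 9 were called lower in distal lung (0.256% of all genes). Megakaryocyte and platelet genes, of which 13 of 16 were in the table, had 0 called at 0.001 and 1 at 0.05, ITGB3, lower in CF distal lung (11.4% of all genes), and fetal liver genes, of which 9 of 10 were in the table, summed to 7.31 to 10.9 CPM at WT day 120 and 10.2 to 30.5 CPM at WT term, and to 7.39 to 20.1 CPM and 15.2 to 26.1 CPM in CF. Of these, 2 of 4 tested in WT proximal (11.3% of all genes) and 3 of 7 in WT distal lung (11.8%) were higher at 0.05, and 0 of 4 in CF proximal (0.0762%) and in CF distal lung (11.5%). They were ALB, the albumin gene, and TTR in both WT regions and SERPINA1 in WT distal lung. ALB went from means of 2.45 to 15.4 CPM in WT proximal and 1.28 to 11.5 CPM in WT distal lung. TTR held 0 to 8 reads in WT proximal libraries before term and 202 and 249 at term, so it passed the filter on low counts only through term. Other genes of the list had lower means at WT term, among them FGB. It went from 6.37 to 4.01 CPM in WT proximal and from 6.82 to 3.77 CPM in WT distal lung. The 20 lung epithelial, endothelial and mesenchymal genes gave 3 higher and 1 lower call in WT proximal and 2 and 0 in WT distal lung, with KRT8 and KRT18, keratins of simple epithelia, called higher in both. The part of these shifts in the levels of the members, through the share of all reads that other cells took, was not tested.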

How the data were processed

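Lung cDNA was primed with oligo-dT and sequenced as 100 bp pairs. Per the labels and the study's methods, the authors aligned reads to Oar_v4.0 with STAR (2.6 in the submitters' processing notes, another version in the methods) and deposited raw read counts per gene from featureCounts 1.6.3, whose strand setting is not given in the sources used here. A further table that repeats the CF columns was not used. Genes passing filterByExpr (minimum count 10, minimum total 15) were fitted in each time course of 10 libraries with edgeR 4.0.16 in R 4.3.3 (TMM scaling, quasi-likelihood test with the estimator of earlier edgeR releases, Benjamini-Hochberg adjustment over all genes tested), CF and WT of a region were fitted together, and regions were compared with the animal as a block. CPM values were TMM-scaled over 40 libraries, with a prior count of 2 on the log2 scale. Floors of 3 counts lay between 0.0237 and 0.122 CPM by total count, before TMM scaling, and cover counting error only. Most low counts were even (75.9% of the nonzero counts of the members), so that 1 read pair often stood for a count of 2. The 7 genes and the gene lists were chosen with earlier results of these data known. All 7 were named, and list genes were named when called in at least 2 of the 4 comparisons of term with day 120, with the 10 genes most like the members. Other list genes with values (KIT, TPSB2, ITGB3, ALB, TTR, SERPINA1, FGB, HBZ, HBQ1 and markers of the tissue label) were named after their values were seen. A member of that 10 and a list gene are not reported here. The fits were tested on simulated data. Alternatives were DESeq2 1.42.0, RLE scaling, no filter, other limits, equal depth, blocks and leaving out each library.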

Additional observations from a re-analysis of the deposited data

Results flagged for a closer look

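Each result here is a change from day 120 to term that differed between CF and WT by a test of the difference itself (edgeR, adjusted p of 0.05 or less, a looser limit than the study's). The 2 regions come from the same animals and are not independent, and no group had enough libraries for a test of single outlying values. In distal lung the CF change minus the WT change was 4.16 ± 0.746 on the log2 scale for ALAS2 (adjusted p = 0.00488), 5.06 ± 1.12 for HBM (adjusted p = 0.0141) and 3.83 ± 0.909 for SLC4A1 (adjusted p = 0.0196). With 1 distal library left out these values ran from 3.62 to 4.95 for ALAS2, from 3.89 to 5.66 for HBM and from 2.25 to 4.56 for SLC4A1. ALAS1 differed in the other direction, by -2.27 ± 0.346 in proximal (adjusted p = 0.00634) and -2.09 ± 0.246 in distal lung (adjusted p = 0.000411).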

How the results depend on the processing

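The counts of called members at term against day 120 moved with the settings in WT. In proximal lung the count of 1 became 6 at an adjusted p of 0.05 and 4 with DESeq2. It was 4 without the filter, 3 with the bias-adjusted quasi-likelihood test, 2 at equal depth and 3 with all 40 libraries in 1 fit. In distal lung the count of 2 became 6, 5 and 4 at 0.05, with DESeq2 and without the filter, and 5 with all 40 libraries. In both regions the count fell in some fits that left 1 library in a group. Shares of all genes are given here only for the main fit and DESeq2. Whether the counts under the other settings moved more than those of all genes was not tested. Counts of 0 became, at 0.05 and with DESeq2, 1 and 1 for days 65 to 120 in WT proximal lung. This count also rose in some fits with a library left out. For the same days in WT distal lung they became 4 and 4, and for day 120 against day 100 there 1 and 2. For term in CF distal lung they became 3 and 2, and for CF against WT at term in distal lung 2 and 1. The distal difference in change gave 3 and 3. DESeq2 gave 2 for term in CF proximal lung, and the limit of 0.05 gave 2 for CF against WT before term in distal lung. The 7 correlations between regions that passed became 3 within CF, 4 with a prior count of 0.5 and 3 with condition means removed, where the 2 animals of a condition leave mirrored deviations, so that this p is too small, and 0 when the animals were swapped within conditions, chosen after seeing the data. RLE scaling and a gene length trend, the latter chosen after seeing the data, changed no count. Of 1540 values of single members with a library left out, 1377 kept their direction and side of the limit, as did 886 of 947 under other settings. Signs changed in 85 values that passed in neither fit (lowest adjusted p 0.449).

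Replicate numbers did not pair the libraries across conditions (correlations of deviations from -0.415 to 0.616), and with the replicate block the counts were 1 in WT proximal, 2 in WT distal and 0 in the other comparisons. At term, members near 0.1 CPM rest on few reads, so their folds are imprecise.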
